A study of Mus musculus with 6 samples.

Results

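The genes described are 10 alpha-defensins of mouse intestine: Defa3, Defa17, Defa23, Defa24, Defa29, Defa30, Defa31, Defa36, Defa37 and AY761184. Each was found as the row of the deposited expression table with that symbol, 10 of 25416 rows. They were chosen by their log2 difference between HET and WT libraries, being among the largest falls of the table, so their values in that comparison are given as a description, without a test. RNA-seq of intestine tissue was available for 3 libraries labelled HET and 3 labelled WT. HET is the labels' name for the genotype with an S254D substitution in Rnf111, a gene for a ubiquitin ligase known for its part in TGF-beta signalling, and WT for the genotype without it. No treatment, age, sex, strain or segment of the intestine is named in the labels, nor whether each library came from its own animal.

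Alpha-defensins are short cationic peptides, folded by disulfide bonds, that Paneth cells, at the base of the crypts of the small intestine, store in granules and release into the crypt lumen, where they kill bacteria. In the mouse they are also called cryptdins, and they are made as inactive precursors that the protease Mmp7 (matrilysin) cuts into the mature peptide. The genes lie in a cluster of near copies, and their transcription in Paneth cells is known to depend on Wnt signalling through TCF/LEF factors.

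The copies differ so little that their RNA is hard to tell apart. The last 90 coding bases of 5 members are shown because this stretch codes for most of the mature peptide and because the members' similarity sets how the later values can be read. Bases are from GENCODE M21 transcripts, 5′ to 3′, all from genes on chromosome 8, and capitals mark the bases that differ from Defa24.
Defa24: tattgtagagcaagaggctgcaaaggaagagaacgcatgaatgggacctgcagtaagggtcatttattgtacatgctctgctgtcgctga
Defa30: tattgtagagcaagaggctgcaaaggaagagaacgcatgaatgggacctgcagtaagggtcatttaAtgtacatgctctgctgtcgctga
Defa17: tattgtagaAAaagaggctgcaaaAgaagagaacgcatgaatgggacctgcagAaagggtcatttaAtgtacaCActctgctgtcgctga
Defa31: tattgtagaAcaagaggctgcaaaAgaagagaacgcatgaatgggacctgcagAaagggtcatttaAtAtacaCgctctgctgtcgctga
Defa37: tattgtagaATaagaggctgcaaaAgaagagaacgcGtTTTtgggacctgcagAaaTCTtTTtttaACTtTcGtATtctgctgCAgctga
Defa30 differed from Defa24 at 1 of the 90 bases, Defa31 at 6, Defa17 at 7 and Defa37 at 22. The stretch printed for Defa17 is also that of Defa3, the one for Defa31 is also that of Defa23, and the one for Defa37 is also that of Defa36. These 3 pairs were identical over the whole coding sequence.

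AY761184 and Defa29 belong to a second kind of coding sequence in the family, 351 bases long, where the other members shown above have 282. RefSeq gives names of the CRS1C type, for cryptdin-related sequence peptides, to this kind, and AY761184 overlaps the RefSeq gene Defa39. Their last 90 coding bases are shown with capitals where AY761184 differs from Defa29, at 4 bases.
Defa29: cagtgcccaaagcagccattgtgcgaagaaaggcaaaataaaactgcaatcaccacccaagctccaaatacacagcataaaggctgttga
AY761184: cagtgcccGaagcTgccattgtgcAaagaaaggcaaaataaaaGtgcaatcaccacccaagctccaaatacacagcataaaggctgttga

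Among the 45 pairs of members, identity of the coding sequences ran from 61.9% to 100%, with a median of 85.1%. Grouped at 90% identity, the 29 alpha-defensin rows of the table fell into 5 groups of more than 1 row and 2 rows on their own. Defa3, Defa17, Defa23, Defa24, Defa30 and Defa31 fell in 1 group, Defa36 and Defa37 in another, and AY761184 and Defa29 in the third. As a measure of how far a short read could be assigned, 50-base windows of each transcript were looked up in the other transcripts of the family. Every window of Defa31 and Defa37 was also in another family transcript, and so were 95.4% of those of Defa36, 94.8% of those of Defa23, 92.2% of those of Defa3 and 92.0% of those of Defa17. The share was 52.4% for Defa30 and 43.4% for Defa29, and it was lowest for AY761184 at 28.4% and Defa24 at 28.1%. The sources used here do not say how the authors' counting split reads between such copies. The level of 1 member within an identical pair is therefore uncertain, while the sum of the pair is less so.

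**Figure D1:**
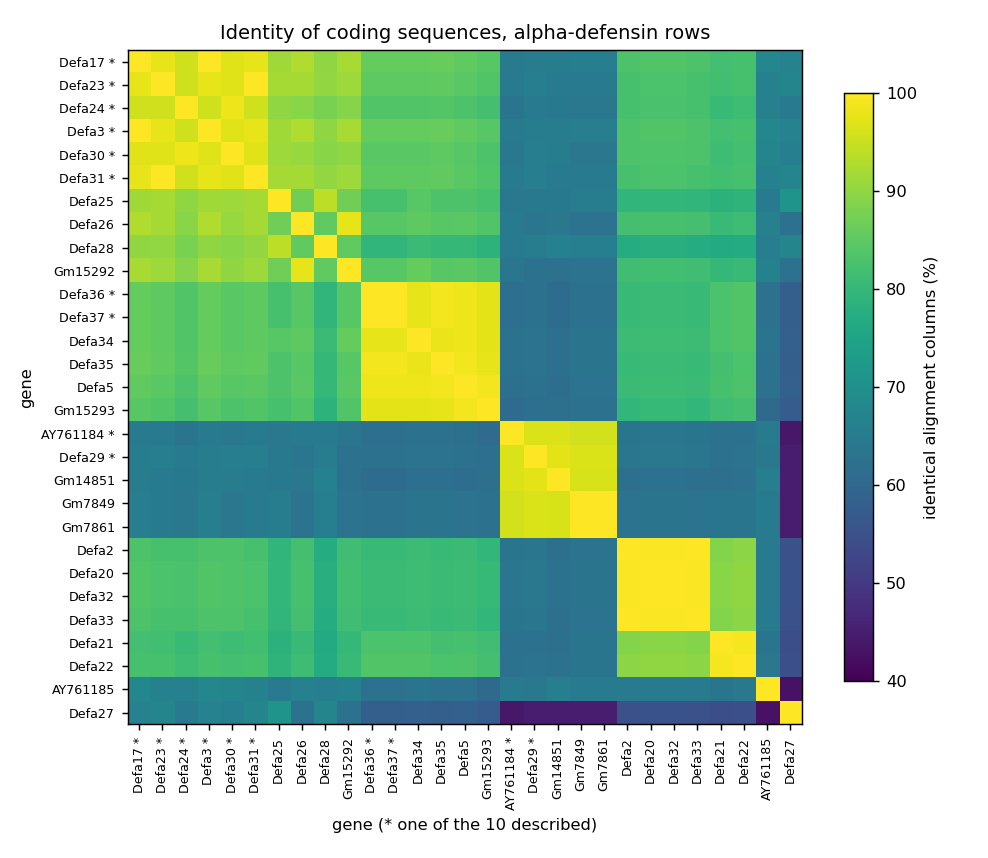
Percent identity of the coding sequences between alpha-defensin genes, each row and column being 1 gene and the colour giving the identity. Blocks of high identity mark the sequence groups, with Defa24 and Defa30 at 98.6% and AY761184 at no more than 61.9% to Defa36 and Defa37.

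Start-site windows are shown for 3 members with different sequences, because TCF/LEF factors are the known route from Wnt signalling to these genes, and for Gm14851, an alpha-defensin under an older symbol, as a contrast. Each runs from 250 bases before to 50 bases after the start, on the gene's own strand, from RefSeq on GRCm38.p6. That table held 5 of the 10 members, namely Defa23, Defa30, Defa31, Defa36 and Defa37. Capitals mark ATCAAAG, which is the TCF/LEF letters CTTTGAT read on the other strand, and TATAAA.
Defa31 (chr8:21191323-21191622, plus strand): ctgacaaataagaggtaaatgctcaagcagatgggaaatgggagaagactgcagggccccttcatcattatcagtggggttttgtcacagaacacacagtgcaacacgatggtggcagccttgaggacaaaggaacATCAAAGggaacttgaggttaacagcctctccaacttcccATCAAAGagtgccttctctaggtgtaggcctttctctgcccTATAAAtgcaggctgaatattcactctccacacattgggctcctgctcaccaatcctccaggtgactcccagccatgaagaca
Defa30 (chr8:21134400-21134699, plus strand): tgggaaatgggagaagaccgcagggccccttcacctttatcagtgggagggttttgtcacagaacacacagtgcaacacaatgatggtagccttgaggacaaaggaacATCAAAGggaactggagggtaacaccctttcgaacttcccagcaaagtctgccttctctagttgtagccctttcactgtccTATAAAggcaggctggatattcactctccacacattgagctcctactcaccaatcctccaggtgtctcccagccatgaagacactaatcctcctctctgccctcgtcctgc
Defa37 (chr8:21565136-21565435, plus strand): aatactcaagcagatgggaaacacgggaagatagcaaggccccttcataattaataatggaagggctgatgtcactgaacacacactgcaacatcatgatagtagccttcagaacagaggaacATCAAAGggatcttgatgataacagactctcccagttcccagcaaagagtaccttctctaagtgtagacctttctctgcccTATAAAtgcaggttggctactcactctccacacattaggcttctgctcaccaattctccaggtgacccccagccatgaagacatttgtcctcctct
Gm14851 (chr8:21096001-21096300, minus strand): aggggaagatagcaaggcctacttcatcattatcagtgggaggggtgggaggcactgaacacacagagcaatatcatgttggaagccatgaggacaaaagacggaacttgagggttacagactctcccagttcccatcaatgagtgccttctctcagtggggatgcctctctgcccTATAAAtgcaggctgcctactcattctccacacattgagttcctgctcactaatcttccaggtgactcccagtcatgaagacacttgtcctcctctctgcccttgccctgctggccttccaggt

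The TCF/LEF motif was searched on both strands, spelled CTTTGAA or with other last letters as CTTTGAT or else CTTTGTA or finally CTTTGTT. It was in the windows of 5 of 5 members and 13 of 17 alpha-defensin genes with a window, against 16.9% of all 32851 windows in the table. Defa23 and Defa31 held 2 matches each, and Defa30, Defa36 and Defa37 held 1 each. The 4 windows without a match were those of Gm14851, Gm7849, Gm7861 and AY761185. All members with a window are of the shorter kind of coding sequence. AY761184 and Defa29 had no window, and Gm14851, Gm7849 and Gm7861 belong to their sequence group. TATAAA was in 5 of 5 members and 16 of 17 alpha-defensin genes, against 13.6% of all windows, and the letters CAGCTG, an E-box, were in 0 of 5 and 1 of 17, against 16.3%. The windows of the members were 72.7% to 100% identical over 10 pairs, so these matches are not independent of each other. A match of letters is a description of the sequence and not a binding site.

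The authors deposited FPKM, a gene's fragments over its transcript length and over the total of the library, so all values below are levels per length. Values of the 3 libraries of a genotype are given in the order of their replicate numbers. Of 25416 rows, 11870 reached an FPKM of 1 in at least 3 libraries and were compared on log2(FPKM + 1) with limma, a linear model that shares the spread across genes, at a Benjamini-Hochberg adjusted p under 0.05. In HET libraries 35.7% of these rows were called lower and 10.7% higher, and the median log2 difference over all of them was -0.12, against which small differences below should be read. The median was -0.03 after median-ratio scaling and 0.04 after quantile normalization. The share called likewise depended on scaling, with 3267 rows called lower and 2334 higher after median-ratio scaling and 2153 lower and 2929 higher after quantile normalization. Summed FPKM ran from 469968 to 520095 per library. Depth, estimated roughly from the lowest values, came to 20500000 to 26900000 fragments, at which 1 fragment on a 400-base transcript is worth 0.0929 to 0.122 FPKM. Rows at 0 numbered 7295 to 7460 in HET and 6295 to 6688 in WT. Rnf111 itself was at 4.50 ± 0.296 FPKM in HET and 5.20 ± 0.1996 in WT (mean ± SD, n = 3 each) and did not pass the test (limma adjusted p = 0.0609), and FPKM does not show the substitution.

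The members were abundant in the WT libraries and far lower in all HET libraries. Summed over the 10 members, the level was 145, 424 and 1689 FPKM in HET and 20632, 8228 and 24947 FPKM in WT. The groups did not overlap: WT replicate 2, the lowest WT library, was 4.87 times HET replicate 3, the highest HET library. The mean was 753 ± 823 FPKM in HET and 17936 ± 8680 in WT (SD, n = 3 each), a 23.8-fold difference. HET replicate 3 set much of the HET mean, and without it the difference was 63.0-fold. Of all FPKM in a library, the members took 0.0285%, 0.0868% and 0.359% in HET and 4.06%, 1.67% and 4.80% in WT. In bulk tissue, fewer Paneth cells and less defensin RNA per Paneth cell cannot be told apart.

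All 10 members passed the filter on low values, with an FPKM of at least 1 in all 6 libraries. All 10 had every HET value below every WT value, where 43.8% of all tested rows did. Since the members were taken from this contrast, this count says nothing further. Their log2 differences ran from -4.86 for Defa24 to -5.67 for Defa31, with a median of -5.08, and ran from -5.62 to -4.74 under 3 other scalings. On either side of the choice stood Defa24 at -4.86, the smallest difference among the members, and Defa26 at -4.70, the next alpha-defensin. Gm14851 at -5.42, Gm7849 at -5.52, Gm15293 at -5.04 and Gm7861 at -5.03 lay within the members' range. They are not members, since the choice took no row whose symbol names a predicted model.

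**Figure D2:**
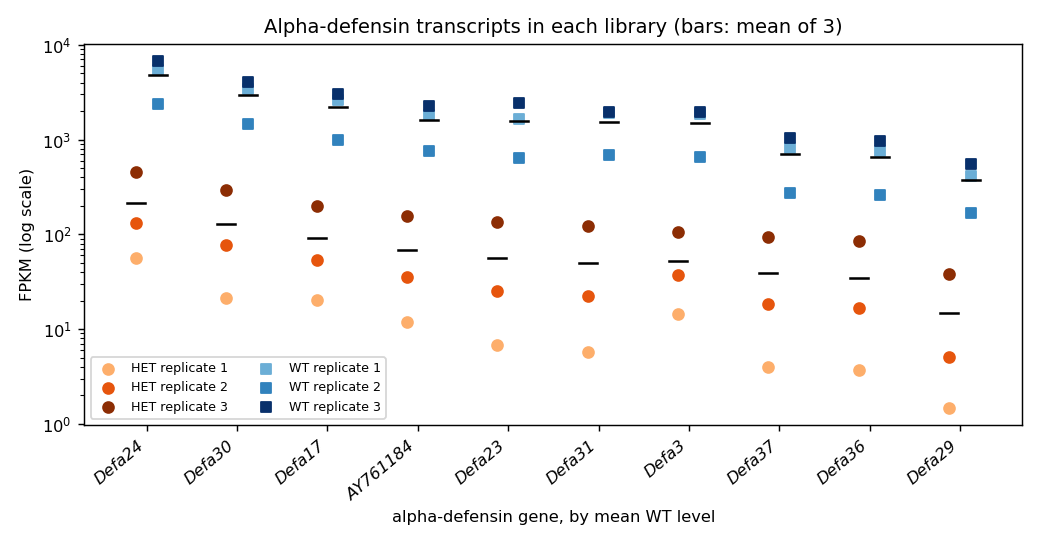
FPKM (log axis) of each of the 10 members in each library, with 3 HET circles and 3 WT squares a gene and a bar at each mean. All HET points lie below all WT points of the same gene, with HET replicate 3 the highest of HET and WT replicate 2 the lowest of WT.

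Defa24 was the most abundant member in all 6 libraries. Its level was 56.2, 132 and 460 FPKM in HET and 5424, 2346 and 6697 in WT, or 216 ± 215 against 4822 ± 2237 (SD, n = 3 each), 22.3-fold. Defa30, 98.6% identical to Defa24 in coding sequence, was second in all 6. Its level was 21.2, 78.1 and 291 FPKM in HET and 3444, 1448 and 4043 in WT, a 22.9-fold difference of means. Both thus show the same pattern, with HET replicate 1 the lowest of all libraries and WT replicate 2 nearest to HET replicate 3.

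The identical pair Defa3 and Defa17 came next as a sum. Together they stood at 34.4, 90.5 and 305 FPKM in HET and 4442, 1643 and 4984 in WT. Within the pair, Defa17 was listed 1.41 to 1.90 times as high as Defa3 in every library, a split that identical coding sequences leave uncertain. Singly, Defa17 was at 91.2 ± 95.8 against 2209 ± 1084 FPKM and Defa3 at 52.3 ± 47.3 against 1481 ± 713 (SD, n = 3 each). Defa3 had the narrowest spread among the HET libraries of all members, its highest being 7.37 times its lowest.

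The identical pair Defa23 and Defa31 summed to 12.6, 47.2 and 259 FPKM in HET and 3527, 1336 and 4416 in WT. Defa31 had the largest fold of any member, 30.2, from 50.3 ± 63.4 to 1519 ± 720 FPKM, and Defa23 was 28.1-fold apart, from 56.0 ± 70.0 to 1574 ± 900 (SD, n = 3 each). The 3 HET libraries differed more for this pair than for Defa24, HET replicate 3 standing far above the other two.

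The identical pair Defa36 and Defa37, of the second sequence group, summed to 7.66, 35.0 and 178 FPKM in HET and 1578, 534 and 1992 in WT. Their folds were the lowest among the members, 19.0 for Defa36 and 18.1 for Defa37. WT replicate 2 was the lowest WT library here too, at 2.90 times HET replicate 3 for Defa37 and 3.09 times for Defa36.

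Of the 351-base kind, AY761184 was at 11.9, 35.4 and 157 FPKM in HET and 1799, 752 and 2265 in WT, or 68.2 ± 78.1 against 1605 ± 775 (SD, n = 3 each). Defa29 was the least abundant member in all 6 libraries, at 1.48, 5.12 and 37.8 FPKM in HET and 418, 169 and 551 in WT. The folds of 23.5 and 25.6 lay within the range of the cryptdin-type members. Without HET replicate 3 the folds of the 10 members ran from 51.1 for Defa24 to 115 for Defa29.

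While the totals stood far apart, the order of the members was much the same. Defa24, Defa30 and Defa17 took places 1 to 3 and Defa37, Defa36 and Defa29 places 8 to 10 in all 6 libraries, so 6 of 10 members kept 1 rank, and AY761184, Defa23, Defa31 and Defa3 exchanged places 4 to 7. As a share of the members' summed FPKM, Defa24 held 38.6%, 31.2% and 27.2% in HET and 26.3%, 28.5% and 26.8% in WT. The groups overlapped, HET replicate 3 falling among the WT libraries. AY761184 held 8.20% to 9.32% in HET and 8.72% to 9.14% in WT, and Defa17 11.9% to 13.8% and 11.96% to 12.6%. Defa31 was the 1 member of 10 whose shares did not overlap, at 3.98%, 5.24% and 7.27% in HET and 9.19%, 8.38% and 7.91% in WT. Its coding sequence is that of Defa23, whose shares were 4.68%, 5.90% and 8.06% in HET and 7.90%, 7.86% and 9.80% in WT and did overlap. Taken as a sum, the share of Defa23 and Defa31 was lower in every HET library than in every WT library. The summed shares of Defa3 with Defa17 and of Defa36 with Defa37 overlapped between genotypes.

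**Figure D3:**
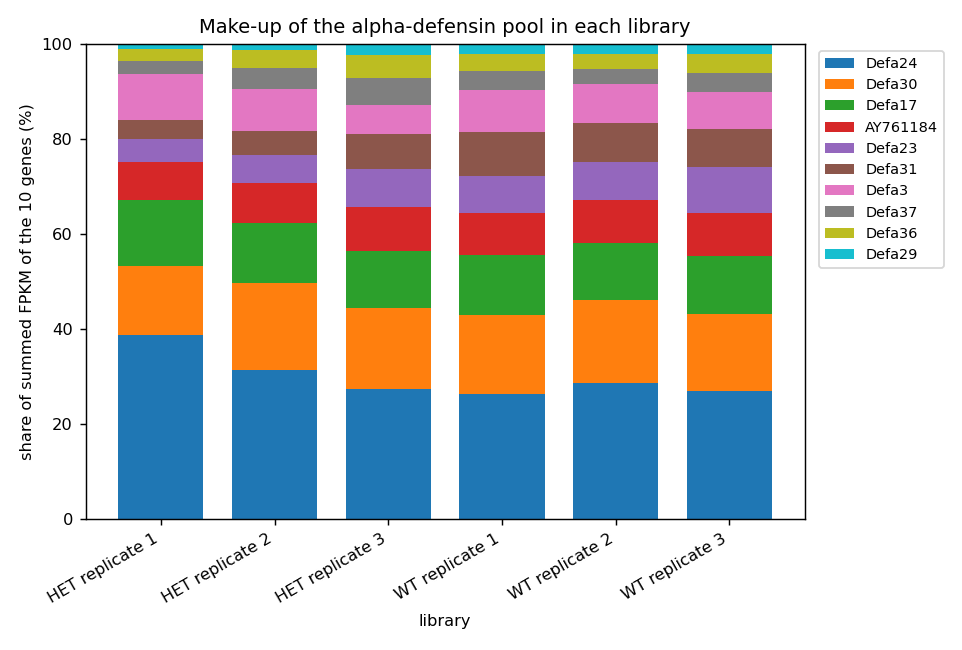
Share of each member in the summed FPKM of the 10 members (percent, stacked to 100) in each library. Defa24 takes the largest share in each, from 26.3% to 38.6%, and the order of the segments changes little between HET and WT.

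Libraries of the same genotype differed in all members at once. All 10 members were lowest in HET replicate 1 and highest in HET replicate 3, and all 10 were lowest in WT replicate 2 and highest in WT replicate 3. The sum differed 11.6-fold between the highest and lowest HET libraries and 3.03-fold between the WT libraries. The SD of the log2 sum was 1.77 in HET and 0.86 in WT, where the median SD over all tested rows was 0.10 and 0.07. The slope of each member's log2 deviation from its genotype mean on that of the sum ran from 0.83 for Defa3 to 1.20 for Defa37, where 1 means that the member moved in step with the sum. Near-identical transcripts share reads, and members are part of the sum, so this agreement is a description of the libraries and carries no p.

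**Figure D4:**
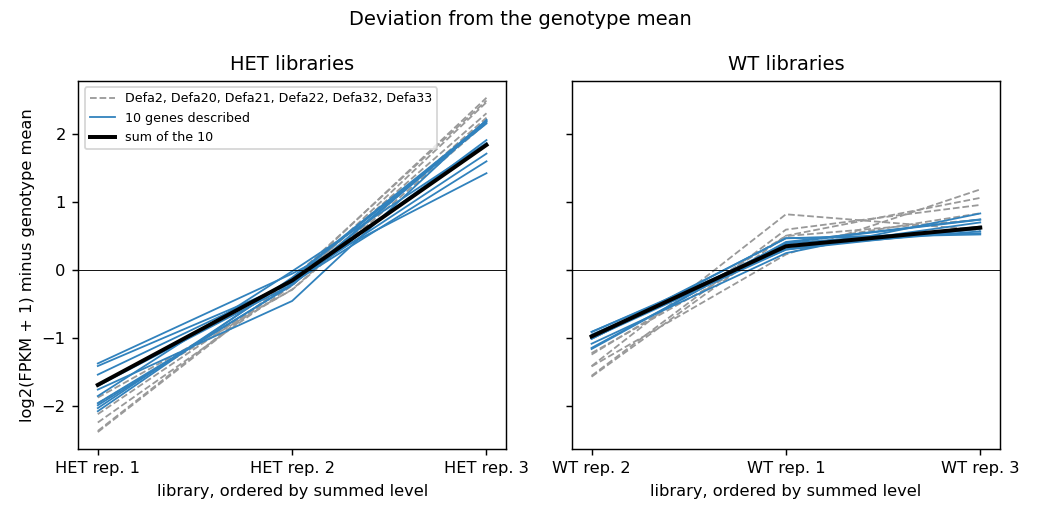
Deviation of each alpha-defensin gene from its genotype mean (log2 FPKM + 1) in each library, the libraries of a genotype being ordered by the members' sum. Blue lines are members, the black line their sum and dashed grey lines 6 other genes (Defa2, Defa20, Defa21, Defa22, Defa32 and Defa33). Members keep 1 order within each genotype, and the 6 others mostly spread further, with slopes on the members' sum of 1.19 to 1.42 against 0.83 to 1.20.

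Rows that are no member but have a symbol starting with Defa, and AY761185, numbered 14. Of these 11 were tested and 11 were called lower in HET (limma adjusted p 0.00259 to 0.0308), where 35.7% of all tested rows were, with log2 differences of -4.70 to -2.25 and a median of -4.10 against -0.12 over all tested rows. Defa28 passed the filter through its WT libraries alone, which favours a lower call, and without it 10 of 10 were called lower. Among these 10, Defa35, at 0, 0.776 and 6.99 FPKM in HET, also passed mainly through WT. AY761185 was listed at 0 in all 6 libraries, and Defa25 and Defa27 were listed at 0 in all HET libraries. Together the 14 rows stood at 11.1, 61.4 and 409 FPKM in HET and 2023, 577 and 2584 in WT. An exact two-sided permutation test of this sum gave p = 0.1, the smallest that the 20 arrangements of 3 against 3 libraries allow. These rows share reads with the members and are no independent evidence. The count was 8 without HET replicate 1, 5 without HET replicate 2, 4 without WT replicate 1 and 4 without WT replicate 3.

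Defa2, Defa20, Defa32, Defa33, Defa21 and Defa22, singled out after their values were seen, make up the sequence groups that hold no member. They were 7.87-fold to 10.9-fold higher in WT, below the 18.1-fold to 30.2-fold of the members. Without HET replicate 3 these folds were 33.5 to 50.2, against 51.1 to 115 for the members. The members were chosen for the size of their fall, so nothing is read from either gap. Defa2 was at 1.05, 8.59 and 60.8 FPKM in HET and 284, 84.2 and 336 in WT. Among the 6, the highest HET library was 34.02 to 58.1 times the lowest and the highest WT library 3.99 to 6.26 times the lowest, where the members' ratios were 7.37 to 25.6 and 2.79 to 3.78. Defa33 was the 1 row of the 6 whose groups overlapped, with WT replicate 2 at 23.1 FPKM below HET replicate 3 at 24.96. The share of Defa2, Defa20, Defa32 and Defa33 in all alpha-defensin FPKM was 2.26%, 4.45% and 6.85% in HET and 1.84% to 2.66% in WT, being highest in the HET library with the most defensin RNA.

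A further 5 alpha-defensin rows, found through RefSeq synonyms, stand in the table under older symbols: Gm14851 (Defa38), Gm15292 (Defa40), Gm15293 (Defa41), Gm7849 (Defa42) and Gm7861 (Defa43). All 5 were tested and were lower in HET (limma adjusted p 0.00185 to 0.00636), where 35.7% of all tested rows were. Every 50-base window of Gm7849 and 97.6% of those of Gm7861 were also in another family transcript, so these rows are no independent evidence. Gm15293 was listed at 0 in HET replicates 1 and 2 and at 10.2 FPKM in HET replicate 3. It thus passed the filter mainly through WT, which favours a lower call. Gm14851 was at 87.4 ± 96.4 FPKM in HET and 2473 ± 1162 in WT (SD, n = 3 each), the third highest WT mean of the 29 alpha-defensin rows. The 5 rows held 13.6% to 17.6% of all alpha-defensin FPKM in HET and 19.8% to 21.6% in WT. With all 29 rows the family summed to 181, 589 and 2538 FPKM in HET and 28244, 11227 and 34500 in WT, 22.4-fold apart, or 0.0355% to 0.540% of a HET library and 2.27% to 6.63% of a WT library. Of the beta-defensins, a separate family of epithelial peptides, 36 of 42 rows were at 0 in every library and the highest value was 1.32 FPKM.

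Mmp7, whose product activates the precursors, was also lower in HET. Its level was 8.81, 12.1 and 26.8 FPKM in HET and 115, 42.1 and 160 in WT, with no overlap and in the same order within each genotype as the defensins. The log2 difference was -2.60 with a standard error of 0.55 (limma adjusted p = 0.00835), and the exact two-sided permutation test gave its smallest possible p of 0.1. The members' sum per unit of Mmp7 was 16.5, 35.0 and 63.1 in HET and 180, 195 and 156 in WT. The members were chosen for the size of their fall, so nothing is read from this ratio differing between genotypes. The same ratio to Itln1, an intelectin of Paneth and goblet cells, was 3.88, 7.41 and 16.0 in HET and 19.2, 19.97 and 16.5 in WT. To Lyz1, the Paneth lysozyme, it was 4.396, 5.11 and 5.78 against 11.0, 8.24 and 9.74, and to Ang4, a Paneth ribonuclease, 101, 137 and 114 against 28.7, 29.2 and 23.9. The ratio to Lyz1 was lower and that to Ang4 higher in every HET library than in every WT library. Since the members were chosen for their fall, nothing is read from these differences either.

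Of 13 tested genes for defensin processing and Paneth secretion, 6 (46.2%) were called lower, 3 (23.1%) higher and 4 did not pass, where 35.7% and 10.7% of all tested rows were, with a median log2 difference of -0.14. The 9 calls had limma adjusted p of 0.000609 to 0.0255. Beside Mmp7, the lower genes were those of the unfolded protein response, Xbp1 (108 ± 8.41 FPKM in HET, 133 ± 5.24 in WT), Ern1 (3.13 ± 0.243 and 5.37 ± 0.247) and Ern2 (1.30 ± 0.428 and 2.56 ± 0.557), the secretory foldase Agr2 (167 ± 22.1 and 258 ± 37.9) and the Golgi GTPase gene Rab2a (66.2 ± 1.60 and 78.7 ± 0.934; SD, n = 3 each). The higher genes were Irgm1 (51.4 ± 7.33 and 31.9 ± 5.54), an autophagy GTPase, Kcnn4 (22.7 ± 2.77 and 16.8 ± 0.866), a potassium channel of Paneth cell secretion, and Atg16l1 (7.56 ± 0.578 and 6.21 ± 0.284), an autophagy factor. Adjusted p rose above 0.05 for Atg16l1 without HET replicate 2 or any 1 of the WT libraries (0.0555 to 0.0893), for Ern2 without HET replicate 2, WT replicate 1 or WT replicate 3 (0.0542 to 0.0606) and after quantile normalization (0.128), and for Xbp1 without WT replicate 3 (limma adjusted p = 0.0598).

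Of 14 tested genes for Paneth specification and its Wnt inputs, 5 (35.7%) were called lower, 2 (14.3%) higher and 7 did not pass, with a median of -0.29. The share called lower was that of all tested rows, 35.7%, so the list as a whole did not stand apart by it. The 7 calls had limma adjusted p of 0.00298 to 0.0225. Atoh1, which sets secretory fate, fell by 0.58 on the log2 scale, from 6.04 ± 0.987 FPKM in WT to 3.69 ± 0.508 in HET. Gfi1, which acts below Atoh1, was at 1.28 ± 0.0436 in HET and 2.07 ± 0.207 in WT. Bhlha15, a factor of secretory cell maturation, was at 1.45 ± 0.0809 and 3.35 ± 1.30. Tcf7l2, a TCF factor of the Wnt pathway, was at 6.52 ± 0.156 and 9.22 ± 1.19, and Sox9, which Paneth cells need to form, at 1.94 ± 0.298 and 2.69 ± 0.215 (SD, n = 3 each). The higher genes were the intestinal factors Cdx2 (77.5 ± 2.61 in HET, 60.9 ± 3.81 in WT) and Nr5a2 (5.57 ± 0.671 and 4.02 ± 0.155). After quantile normalization the calls of Sox9, Gfi1 and Bhlha15 were lost (limma adjusted p 0.717, 0.165 and 0.0809). That of Sox9 was also lost after median-ratio scaling (limma adjusted p = 0.0517). It was lost too without HET replicate 2 (limma adjusted p = 0.0718), HET replicate 3 (0.0521), WT replicate 1 (0.0758) or WT replicate 2 (0.0746).

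Of 14 tested Paneth products outside the defensins, 11 were called lower and 0 higher, with 3 not passing and a median log2 difference of -1.89. Of the 11, Mptx1 and Habp2 reached the filter through their WT libraries alone, which favours a lower call, and without them 9 of 12 were called lower, where 35.7% of all tested rows were. The 11 calls had limma adjusted p of 0.000418 to 0.0134. Ang4 was at 1.45, 3.08 and 14.8 FPKM in HET and 720, 282 and 1044 in WT. Clps, colipase, was at 3.95 ± 1.75 and 63.6 ± 29.0, Reg3a, an antibacterial lectin, at 55.1 ± 4.06 and 106 ± 10.4 (SD, n = 3 each), and Mptx1, a pentraxin, was listed at 0 in every HET library and at 1.41 to 3.93 FPKM in WT. Reg3b and Reg3g, lectins that Paneth cells share with enterocytes, did not pass (limma adjusted p 0.0826 and 0.270). Reg3g was at 991, 861 and 2608 FPKM in HET and 2763, 1108 and 4028 in WT, so HET replicate 3 stood above WT replicate 2.

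Markers of other cell types were called as well, and their part in the defensin difference was not tested. Their counts are to be read against the 35.7% of all tested rows called lower and 10.7% called higher. Some lists share genes, so the counts are not independent. Of the lower goblet cell markers, Agr2 is also a processing gene, Spink4 a Paneth product and Zg16 one of the other antimicrobials. Sox9 is in both the specification and the stem cell lists. Of 14 goblet cell markers 11 were lower and 0 higher, with summed levels of 2070 to 2955 FPKM in HET and 3766 to 4732 in WT, and 7 were lower without WT replicate 1. Among them, Clca1 fell from 220 ± 37.5 FPKM in WT to 63.0 ± 11.3 in HET (SD, n = 3 each; limma adjusted p = 0.000339). Of 7 tuft cell markers 5 were lower, with list sums of 18.1 to 19.7 FPKM in HET and 32.9 to 36.1 in WT. Dclk1 (0.930, 1.08 and 0.843 FPKM in HET), Siglecf (1.12, 0.848 and 0.890) and Alox5 (1.10, 0.723 and 0.736) lay around the filter in HET. These genes passed it mainly through WT, which favours a lower call. Dclk1 lost its call after quantile normalization (limma adjusted p = 0.880). Of 9 crypt stem cell markers 3 were lower (33.3%), summing to 229 to 248 FPKM in HET and 263 to 304 in WT. One of these, Lgr5, reached the filter through its WT libraries alone, 2 of 8 were lower without it, and 1 of the 9 was lower without HET replicate 2. Of 13 enterocyte markers 5 were higher and 0 lower, summing to 26075 to 29802 FPKM in HET and 19203 to 21292 in WT. That count of 5 became 10 without HET replicate 1 and 3 without HET replicate 2, WT replicate 1 or WT replicate 3. Of 9 enteroendocrine markers 1 was higher and 1 lower, with 0 to 2 higher and 0 to 1 lower as each library was left out. Of 10 other epithelial antimicrobials 6 were lower and 2 higher, with 0 higher without HET replicate 2 and 1 without any 1 of the WT libraries, and of 3 tested colon markers 2 were lower. Both of these counts include Retnlb, which was listed at 0 in every HET library and reached the filter through WT alone, and without it 5 of 9 and 1 of 2 were lower. Of the 12 neutrophil markers, a cell that carries alpha-defensins in humans, 0 reached the filter, with Ly6g at 0 in all 6 libraries and sums of 1.94 to 3.27 FPKM in HET and 1.59 to 7.81 in WT. Of the pancreatic acinar markers 1 was tested and 0 were called, with sums of 9.17 to 17.9 and 7.50 to 8.61.

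Markers of position along the small intestine also varied between libraries, and Paneth cells are known to be more numerous towards the ileum. A score of the mean log2 level of distal markers minus that of proximal markers was -3.29, -2.81 and -2.28 in HET and -2.46, -2.60 and -2.35 in WT. Within each genotype the libraries stood in the same order by this score as by defensin level. Slc40a1, a proximal marker, was at 15.6 FPKM in HET replicate 1 and at 1.19 or less in the other HET libraries. Osr2, a distal marker among the 8 rows most like the members' sum, stood in the defensin order in both genotypes. It was at 2.08, 6.78 and 16.1 FPKM in HET and 15.3, 9.75 and 18.6 in WT. The match in order may thus rest partly on single genes, and the score without them was not tested. HET replicate 3 had the highest score of all 6 libraries, with a defensin sum of 1689 FPKM where the WT sums were 8228 to 24947. Of 7 tested distal markers 1 was higher and 2 were lower in HET, summing to 273 to 405 FPKM and 453 to 472 in WT, and of 9 proximal markers 2 were higher and 1 lower, summing to 9313 to 10584 and 7301 to 8672. As each library was left out, 0 to 2 distal markers were higher and 2 to 3 lower, and 2 to 3 proximal markers were higher and 0 to 3 lower. Fabp6, Slc10a2 and Fgf15, which define the ileum, were at or near 0 throughout, with Fabp6 at 0.178 to 0.496 FPKM and Fgf15 at 0. The part of position in the defensin difference was not tested.

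**Figure D5:**
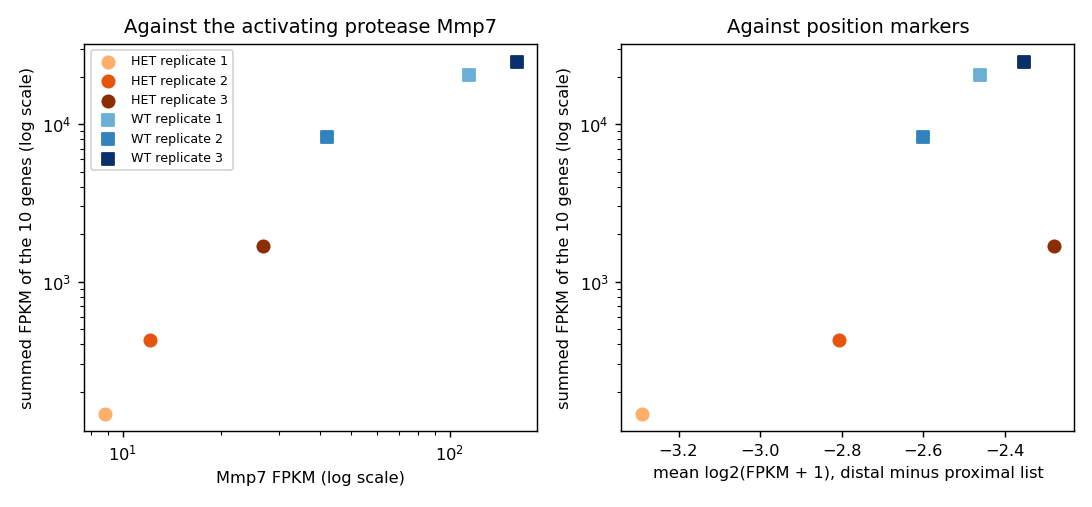
Summed FPKM of the 10 members (log axis) in each library against Mmp7 FPKM (log axis) and against the position score (distal minus proximal, log2). HET replicate 3, with the highest score of -2.28, lies at 1689 FPKM, below the lowest WT library at 8228.

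Genes that followed the members most closely from library to library were sought among 7091 rows with a mean FPKM of at least 5, by the root mean square difference of their log2 deviations from the genotype means over the 6 libraries. The median over these rows was 1.15, and the 8 closest were Mptx2 at 0.158, Lyz1 at 0.172, Ang4 at 0.287, Slc34a2 at 0.391, Osr2 at 0.406, Nts at 0.486, Pmp22 at 0.519 and C3 at 0.563. Mptx2, a mucosal pentraxin of Paneth cells, was at 0.258, 3.36 and 15.3 FPKM in HET and 414, 134 and 570 in WT. The deviations were taken on log2(FPKM + 1), which narrows the spread of values as low as 0.258. The members' sum per unit of Mptx2 was 563, 126 and 110 in the HET libraries, so on FPKM itself Mptx2 did not keep step with them there. Lyz1 was at 33.1, 82.9 and 292 in HET and 1877, 998 and 2562 in WT. Slc34a2, a phosphate transporter, was at 1.20, 4.87 and 13.5 against 17.6, 12.8 and 21.5, and Osr2, a transcription factor in the distal list, at 2.08, 6.78 and 16.1 against 15.3, 9.75 and 18.6. The first 3 did not overlap between genotypes, while Slc34a2, Osr2, Nts (neurotensin, a gut hormone), Pmp22 and C3 (complement) overlapped and did not pass the test (limma adjusted p 0.0640 to 0.786). The search used only how libraries of 1 genotype differ, so a row could rank high with or without a difference between genotypes.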

How the data were processed

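RNA-seq of mouse intestine had 3 HET and 3 WT libraries. Per the labels' protocols, polyadenylated RNA was captured with oligo(dT) beads before library construction by a SMARTER kit. The authors deposited FPKM for each library, a level divided by transcript length and library total, so abundant genes shift all others. The submitters' processing notes name GRCm39. Not given in the sources used here are the aligner, the counting tool and its treatment of strand and of reads that match several copies. For transcripts of about 400 bases, FPKM also depends on how length was set. Depth is not in the table and was estimated from the lowest values, so no counting intervals are given.

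The table held 25416 rows, 22036 with an Ensembl identifier. For 11 rows a date stood in place of the symbol, which was looked up by identifier. The 11870 rows that reached an FPKM of 1 in 3 or more libraries were compared on log2(FPKM + 1) by limma 3.58.1 (R 4.3.3), with a mean-variance trend, genotype as the only term, and Benjamini-Hochberg adjustment over all of them at 0.05. A log2 difference on this scale understates the change of low rows. Fold differences are ratios of mean FPKM. Exact permutation tests over libraries were two-sided, and with 3 against 3 libraries they cannot go below 0.1. No libraries held identical values (0 pairs). Nothing in the labels ties each library to its own animal, and the spread behind each p-value may therefore be technical. Same-numbered libraries did not all deviate together (correlations -0.03, 0.13 and 0.32), so replicate numbers were not used to pair them.

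Transcripts were taken from GENCODE M21 and start-site windows from RefSeq, both on GRCm38, and compared with Biopython 1.88, beside pandas 2.3.3, SciPy 1.17.1, numpy 2.4.6 and matplotlib 3.10.9 in Python 3.11.15. No coordinates on the build of the values are given.

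The members and the 14 gene lists were chosen with earlier results of these data known. The genes named are the members, all other alpha-defensin rows, the called genes of the lists on processing and specification with Mmp7, Sox9, Atoh1 and Tcf7l2, up to 4 called genes of other lists, and the 8 rows most like the members' sum. Reg3b, Reg3g, Itln1, Habp2, Ly6g, Fabp6, Slc10a2, Fgf15, Slc40a1, Spink4, Zg16 and Dclk1 were added after their values were seen. Alternatives were pseudocounts of 0.1 and 0.01, other filters (none, or a mean FPKM of at least 5), 3 scalings, the replicate block, array weights, no trend, and leaving out each library.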

Additional observations from a re-analysis of the deposited data

How the results depend on the processing

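The median log2 difference over all tested rows went from -0.12 to 0.04 after quantile normalization, where more rows were higher than lower. Of values that answer a comparison, 157 stayed within their limits and 20 moved, and of the others, mostly counts in the gene lists, 281 stayed and 71 moved. The count of higher enterocyte markers was 2 with no filter, 3 after quantile normalization and 10 with array weights. Over all tested rows, the count lower in HET was 4235 and became 1853 with a mean FPKM of at least 5 and 2153 after quantile normalization, and ran from 3150 to 4409 as each library was left out. The count higher was 1269 and became 2334 after median-ratio scaling, 2929 after quantile normalization and 2090 with array weights, with 754 to 1610 as each library was left out. Of the alpha-defensin rows outside the members, 7 were called with no filter on low values and 4 to 11 as each library was left out. With the 5 rows under older symbols, added after seeing the data, 16 of 16 were called lower, where 35.7% of all tested rows were. In the specification list, the count lower was 1 with a mean FPKM of at least 5 and 2 after quantile normalization, and the count higher was 1 with a mean FPKM of at least 5. The fold of the members' sum was 17.0 to 63.0 as each library was left out, the highest without HET replicate 3, and 80.1 without HET replicate 3 and WT replicate 2 together, an alternative chosen after seeing the data. Defa24 held 23.9% in HET and 19.8% in WT when all 29 rows were the denominator. Of 64 named genes and rows outside the members, 20 lost their call in at least 1 alternative and 0 turned in direction. With the replicate number as a block, 3915 rows were lower and 1167 higher, Mmp7 had a limma adjusted p of 0.00459, 11 other alpha-defensin rows were called, and 7 genes of the specification list were lower. Numbers were not taken to pair the libraries, since only the pairs numbered 2 and 3 deviated together (0.13 and 0.32), while pair 1 did not (-0.03) and HET replicate 1 correlated best with WT replicate 2 (0.25). Near-identical copies limit what any single member's value can show, and 3 libraries a genotype limit every test.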
